A study of Mus musculus with 12 samples.

Results

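The motile cilium genes of ependymal cells examined here are 10 rows of 1 expression table, among 38283 genes in all: Ccdc164, Foxj1, Ccdc39, Ccdc40, Dnah5, Dnah9, Dnaic1, Rsph1, Rsph4a and Tekt1. Ccdc164 was chosen by its own values, because its level was higher in the mutant libraries, and the other 9 genes were taken as known members of the same organelle in order to ask whether they followed it. Of the 10, 8 were found under the symbol in the table, and Dnah5 and Dnah9 were found by gene ID under their older names, Dnahc5 and Dnahc9. In 9 of the 10 the mean over all libraries reached 1 FPKM (fragments mapped, per kilobase of transcript and scaled to the size of the library), the level required for testing, and Dnah5 did not. The libraries were made from the hypothalamic arcuate nucleus (ARC) of freely fed male C57BL/6 mice aged 8 weeks, either wild type (WT, 5 libraries) or homozygous for the R299Q mutation of the γ2 subunit of AMPK, encoded by Prkag2 (Homo, 7 libraries). The mutation was knocked in to the gene itself, so every cell type of the Homo mice carried it. The ARC was cut by laser-capture microdissection from brain sections 14 µm thick, and its RNA was amplified across the whole transcriptome before sequencing. The labels number the libraries within each genotype and do not say that each came from a mouse of its own.

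Motile cilia beat by sliding the outer doublet microtubules of their axoneme past each other. Outer and inner dynein arms drive the sliding, while the nexin-dynein regulatory complex, the radial spokes and the central pair control it. In the brain, multiciliated ependymal cells line the ventricles and move cerebrospinal fluid, and the ARC borders the floor of the third ventricle, where ciliated ependymal cells give way to tanycytes. FOXJ1 and the RFX transcription factors switch on the genes of motile cilia, the latter through a DNA element known as the X-box. Since each library was made from bulk tissue, fewer cells of a type and less RNA per cell cannot be told apart in any of the values below.

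The upstream stretches of 4 members are shown because the RFX element is the feature that motile cilium genes are known to share. RefSeq promoter windows on GRCm38.p6, from 250 bases before to 50 bases after the annotated start, were matched for 7 of the 10 members, among them Ccdc164 under its current symbol Drc1. Both strands were searched for the half-site GTTGCC and for a fuller X-box-like form, GTTNCC and GNNAC separated by 1 to 4 bases. Both forms were chosen after the members' windows had been seen, and in Tekt1 a half-site lies within the fuller match. The fuller form was in the windows of 3 members, Dnah9, Dnaic1 and Tekt1, and in 5.39% of 32851 windows over all genes. The half-site was in those of 2 members, Ccdc164 and Tekt1, and in 12.5% of all windows. The 120 bases before each start follow, 5′ to 3′ on the strand of the gene, with the match in capitals (the half-site in Ccdc164 and the fuller form in the others, read on the printed strand in Dnah9 and Tekt1 and on the opposite strand in Ccdc164 and Dnaic1). They lie at chr5:30281273-30281392 (plus strand), chr11:66168552-66168671 (minus strand), chr4:41569674-41569793 (plus strand) and chr11:72361883-72362002 (minus strand).
Ccdc164: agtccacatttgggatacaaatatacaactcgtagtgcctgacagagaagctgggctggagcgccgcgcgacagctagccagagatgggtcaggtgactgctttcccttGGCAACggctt
Dnah9: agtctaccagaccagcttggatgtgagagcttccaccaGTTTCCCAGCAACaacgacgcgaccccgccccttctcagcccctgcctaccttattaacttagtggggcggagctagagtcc
Dnaic1: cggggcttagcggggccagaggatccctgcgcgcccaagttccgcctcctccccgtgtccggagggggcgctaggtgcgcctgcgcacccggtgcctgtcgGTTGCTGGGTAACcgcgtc
Tekt1: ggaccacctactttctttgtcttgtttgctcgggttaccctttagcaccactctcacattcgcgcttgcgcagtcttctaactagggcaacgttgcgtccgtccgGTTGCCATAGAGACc
The match ended 6 bases before the start in Ccdc164, 7 bases in Dnaic1 and 2 bases in Tekt1, and 70 bases before it in Dnah9. A match of letters describes these windows and says nothing about binding.

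Ranked by how many genes they detected above 0, the 12 libraries fell into a pair of sets on either side of the widest gap. The set with fewer genes held Homo 1 to 5, WT 1 and WT 2, with 15742 to 16467 genes above 0, and the set with more held WT 3 to 5, Homo 6 and Homo 7, with 18141 to 18635. Judged by the smallest steps of low values, 1 fragment on 1 kb of transcript was worth about 0.0813 to 0.123 FPKM in the latter set and 0.155 to 0.324 FPKM in the former, where the steps were faint in Homo 2, Homo 3 and WT 2. For Foxj1, Dnah5 and Rsph4a, which have 1 annotated transcript each, this puts the median library at about 34, 39 and 66 fragments. WT 3, WT 5 and Homo 7, all in the set with more genes, also stood apart by the pituitary hormone transcript Gh. It was at 61.5, 64.5 and 54.5 FPKM there, against 0 to 0.139 in the other 9. Cga, another pituitary hormone transcript, was at 50.2 FPKM in WT 3 and 9.37 in Homo 4, against 0 to 0.996 in the other libraries.

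Levels in FPKM are corrected for transcript length and were ordered between genes. Coverage along the transcripts, which affects such an order, was not examined. Rsph1 stood highest, with a mean of 14.7 FPKM over the 12 libraries, followed by Ccdc164 at 7.14, Ccdc40 at 6.79, Dnaic1 at 5.78, Ccdc39 at 4.74, Rsph4a at 2.91, Tekt1 at 2.43, Foxj1 at 2.23, Dnah9 at 1.04 and Dnah5 at 0.291. The place of Ccdc164 is set by the Homo values that chose it, so its own steps are not read as tests. By the WT means it was the fifth, at 3.92 FPKM after Rsph1 at 12.02, Ccdc40 at 7.12, Ccdc39 at 5.31 and Dnaic1 at 4.82. Neighbours in this order, which comes from the same means, were compared by an exact sign-flip permutation test over the 12 libraries on log2(FPKM + 1). It was two-sided and adjusted over 9 pairs, which included those of Ccdc164. The step down from Dnah9 to Dnah5 was larger than the spread between libraries (exact p = 0.00586, adjusted 0.0264). Those from Ccdc39 to Rsph4a (exact p = 0.0215) and from Foxj1 to Dnah9 (exact p = 0.0190) had an adjusted value of 0.0483. That value leans on the small p of Rsph1 with Ccdc164 among the 9, so these steps are borderline. Each step was seen in 10 of 12 libraries. Among Ccdc40, Dnaic1 and Ccdc39, and among Rsph4a, Tekt1 and Foxj1, neighbours did not differ beyond their spread (adjusted exact p between 0.424 and 0.886). Rsph1 lay at the 68.8th percentile of the 14017 genes tested and Foxj1 at the 16.4th, so the members were of middling to low abundance in the ARC.

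Ccdc164, now named Drc1, encodes a subunit of the nexin-dynein regulatory complex. It lies at chr5:30281388-30366695 on the plus strand of GRCm38, and Gm43755 lies within 1 of its introns on the same strand. Its level in WT was 2.10, 5.70, 3.31, 5.47 and 3.00 FPKM in WT 1 to WT 5. In Homo it ran from 5.67 FPKM in Homo 4 through a median of 9.18 to 14.3 in Homo 3. Of the 7 Homo libraries, 6 lay above every WT library, and Homo 4 lay just below WT 2. The mean of the WT libraries was 3.92 ± 1.59 FPKM (SD, n = 5) and that of the Homo libraries 9.44 ± 2.59 (SD, n = 7), a ratio of 2.41, and the difference in mean log2(FPKM + 1) was 1.11 with a standard error of 0.25. This was the 225th highest difference of the 14017. It was 1.18 within the set with fewer genes and 1.01 within the set with more. Since this contrast chose the gene, these values describe it and carry no test.

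**Figure D1:**
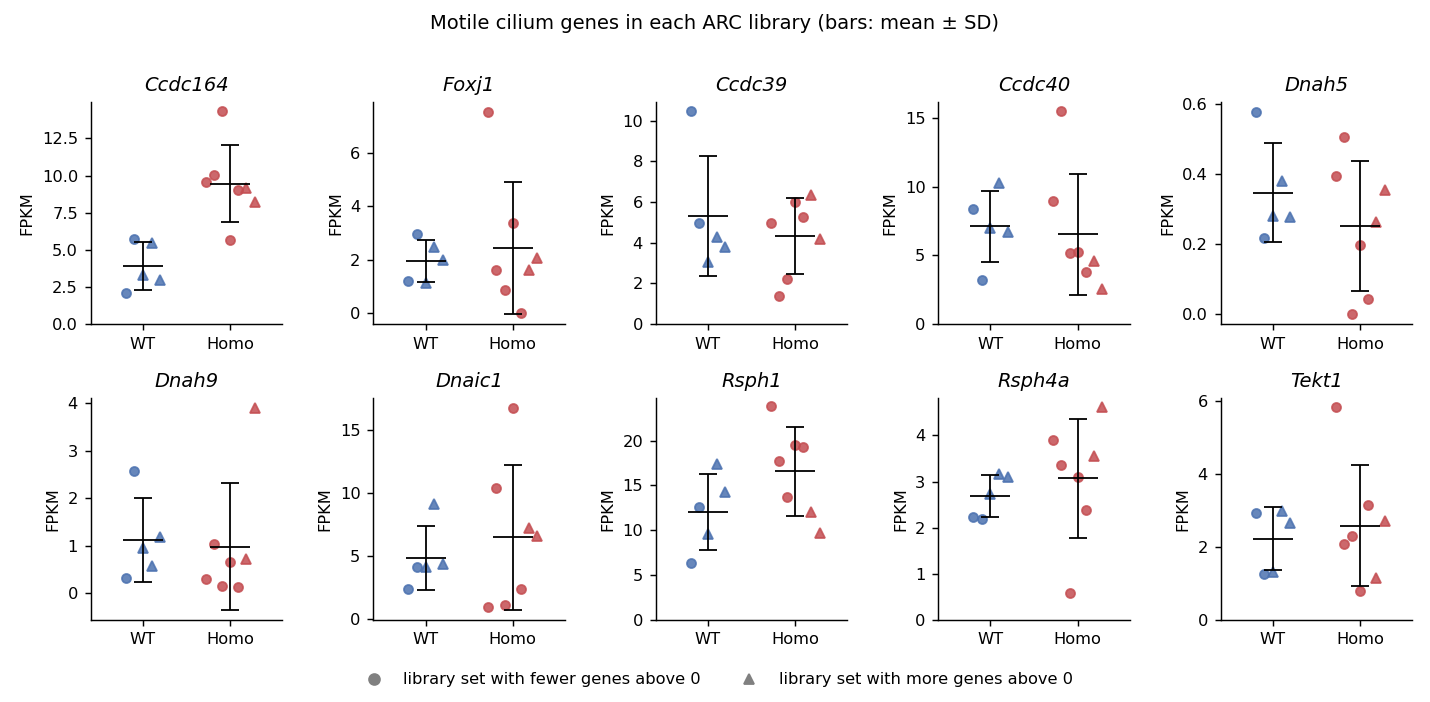
FPKM of each of the 10 members (vertical axes, 1 per gene) in WT and Homo libraries, with circles for the library set with fewer genes above 0, triangles for the set with more, and black bars for the mean ± SD. Ccdc164 runs from 2.10 to 5.70 in WT and from 5.67 to 14.3 in Homo, whereas the WT and Homo ranges of the other 9 genes overlap broadly.

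None of the other 9 followed Ccdc164 past a test. In the limma fit across all 14017 genes, 0 of the 8 other members tested had an adjusted p under 0.05, where 1 gene in all, Jarid2, did (0.00713% of those tested). At an unadjusted p under 0.05 the count was again 0 of 8, beside 5.55% of all genes, and by the exact permutation test it was 0 of 9. In no member did every Homo library exceed every WT library, a pattern found in 0.128% of all genes. By direction, 4 of the 9 (Rsph1, Tekt1, Rsph4a and Dnaic1) had a higher mean log2 level in Homo and 5 a lower one. The median log2 difference of the 8 tested was 0.0068, beside -0.0062 over all genes tested. The 95% intervals of the 8 differences were wide, with limits that reached down to -1.13 (Dnah9) and up to 1.17 (Dnaic1). Without WT 3, WT 5 and Homo 7, the libraries with Gh, 2 of the 9 were higher in Homo, since Dnaic1 (-0.075) and Tekt1 (-0.027) turned, and again none of the 8 tested passed. With 5 against 7 libraries the exact test could reach a p of 0.00126.

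Foxj1 encodes the transcription factor that commits cells to making motile cilia, and lies at chr11:116330704-116335399 on the minus strand. It measured 1.20, 2.97, 1.11, 2.47 and 1.97 FPKM in WT 1 to WT 5. In Homo it ran from 0 in Homo 5 through a median of 1.59 to 7.54 in Homo 1, so both the lowest and the highest library were Homo. WT averaged 1.95 ± 0.802 FPKM (SD, n = 5) and Homo 2.43 ± 2.48 (SD, n = 7), with a log2 difference of -0.02 (SE 0.43, limma adjusted p = 0.995) that the exact permutation test put at p = 0.966. At about 34 fragments in the median library, a listed 0 is far below the gene's usual level. Whether such a 0 means that no RNA was present was not tested. The abundant mitochondrial ribosomal RNAs mt-Rnr1 and mt-Rnr2 are also listed at 0, but in every library, unlike Foxj1.

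Ccdc39 and Ccdc40 encode partner coiled-coil proteins that set the spacing of inner dynein arms and the nexin-dynein complex along the doublet. Ccdc39 (chr3:33812362-33844310, minus strand) measured 10.5, 4.96, 3.04, 4.28 and 3.82 FPKM in WT 1 to WT 5, and in Homo from 1.37 through a median of 4.97 to 6.35. Its highest library was thus WT 1 and the Homo range lay largely within that of WT, with means of 5.31 ± 2.96 (SD, n = 5) and 4.33 ± 1.89 (SD, n = 7). Ccdc40 (chr11:119228572-119265238, plus strand) measured 8.41, 3.20, 7.01, 10.3 and 6.71 FPKM in WT, and in Homo from 2.57 through a median of 5.16 to 15.5 in Homo 2. Ccdc40 averaged 7.12 ± 2.60 in WT (SD, n = 5) and 6.55 ± 4.41 among Homo libraries (SD, n = 7), and here the Homo range enclosed that of WT. On the log2 scale both genes were lower in Homo, by -0.24 (SE 0.34, limma adjusted p = 0.944) for Ccdc39 and -0.20 (SE 0.36, limma adjusted p = 0.965) for Ccdc40, and neither passed the test. Between these partners the Pearson r over the 12 libraries was -0.31. Ccdc39 overlaps Ttc14 and Gm43140 on the opposite strand, and the sources used here do not state whether strand was used in counting, so its values may include their fragments.

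The outer dynein arm was represented by a pair of heavy chains, the motors themselves, and by the intermediate chain Dnaic1. Dnaic1 (chr4:41569775-41638158, plus strand) measured 2.35, 4.10, 4.14, 9.13 and 4.38 FPKM in WT 1 to WT 5, and in Homo from 0.900 through a median of 6.60 to 16.8. Its lowest library, Homo 1, and its highest, Homo 4, belonged to 1 genotype. WT averaged 4.82 ± 2.54 FPKM (SD, n = 5) and Homo 6.47 ± 5.76 (SD, n = 7), and the log2 difference was 0.03 (SE 0.53, limma adjusted p = 0.995, exact permutation p = 0.955). Dnaic1 overlaps Enho on the opposite strand.

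The heavy chains had the lowest FPKM of the members and the longest annotated transcripts, of 13798 bases for Dnah9 and 15637 for Dnah5. Dnah9 (chr11:65831282-66168551, minus strand, overlapping Gm12296) measured 0.326, 2.58, 0.950, 0.576 and 1.19 FPKM in WT, and in Homo from 0.141 through a median of 0.651 to 3.90 in Homo 7. The second highest Homo library had 1.04 FPKM. Dnah5 (chr15:28203752-28472052, plus strand) measured 0.576, 0.217, 0.281, 0.381 and 0.277 FPKM in WT, and in Homo from 0 in Homo 3 through a median of 0.264 to 0.506. The WT range of Dnah9 lay within that of Homo, and for Dnah5 the ranges overlapped. Dnah9 averaged 1.12 ± 0.878 FPKM in WT (SD, n = 5) and 0.986 ± 1.33 among Homo libraries (SD, n = 7), and Dnah5 0.346 ± 0.141 and 0.251 ± 0.185. Both means were lower in Homo on the log2 scale, Dnah9 by -0.20 (SE 0.44, limma adjusted p = 0.977) and Dnah5 by -0.11 (exact permutation p = 0.338, below the level for limma), and neither difference exceeded the spread between libraries.

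Rsph1 and Rsph4a belong to the head of the radial spoke. Rsph1 (chr17:31255019-31277383, minus strand, with the antisense AC154652.1) measured 6.38, 12.6, 9.56, 17.4 and 14.2 FPKM in WT 1 to WT 5, and in Homo from 9.74 through a median of 17.7 to 23.9. The Homo libraries lay above the highest WT library in 4 of 7 and within the WT range in the other 3. WT averaged 12.02 ± 4.24 FPKM (SD, n = 5) and Homo 16.6 ± 4.95 (SD, n = 7). Over all libraries this was the largest difference among the 9, at 0.45 on the log2 scale (SE 0.27), but it was 0.26 without WT 1 and 0.15 with array weights, where that of Ccdc40 was larger in size at -0.50. It did not pass the test (limma p = 0.113, adjusted p = 0.915, exact permutation p = 0.139). It turned in direction between the library sets, with 0.97 in the set with fewer genes and -0.28 in the set with more (limma interaction, adjusted p = 0.876). Within the sets together the exact permutation p was 0.205.

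Rsph4a (chr10:33905111-33916021, plus strand) was the steadiest member in WT, at 2.23, 2.197, 2.72, 3.16 and 3.10 FPKM. In Homo it ran from 0.587 in Homo 3 through a median of 3.35 to 4.62. Apart from Homo 3, every Homo library held at least 2.38 FPKM. WT averaged 2.68 ± 0.459 FPKM (SD, n = 5) and Homo 3.07 ± 1.29 (SD, n = 7), and the log2 difference of 0.06 (SE 0.29, limma adjusted p = 0.990) was within the spread between libraries. The 2 spoke-head genes had a Pearson r of 0.14 over the 12 libraries.

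Tekt1 encodes a tektin, a filament protein of the doublet microtubule wall, at chr11:72344722-72362442 on the minus strand. It measured 2.92, 1.26, 1.31, 2.99 and 2.65 FPKM in WT 1 to WT 5, and in Homo from 0.801 in Homo 4 through a median of 2.31 to 5.84 in Homo 1. The Homo values fell on both sides of the WT range. WT averaged 2.23 ± 0.867 FPKM (SD, n = 5) and Homo 2.58 ± 1.66 (SD, n = 7), and the log2 difference was 0.07 (SE 0.33, limma adjusted p = 0.990, exact permutation p = 0.837).

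**Figure D2:**
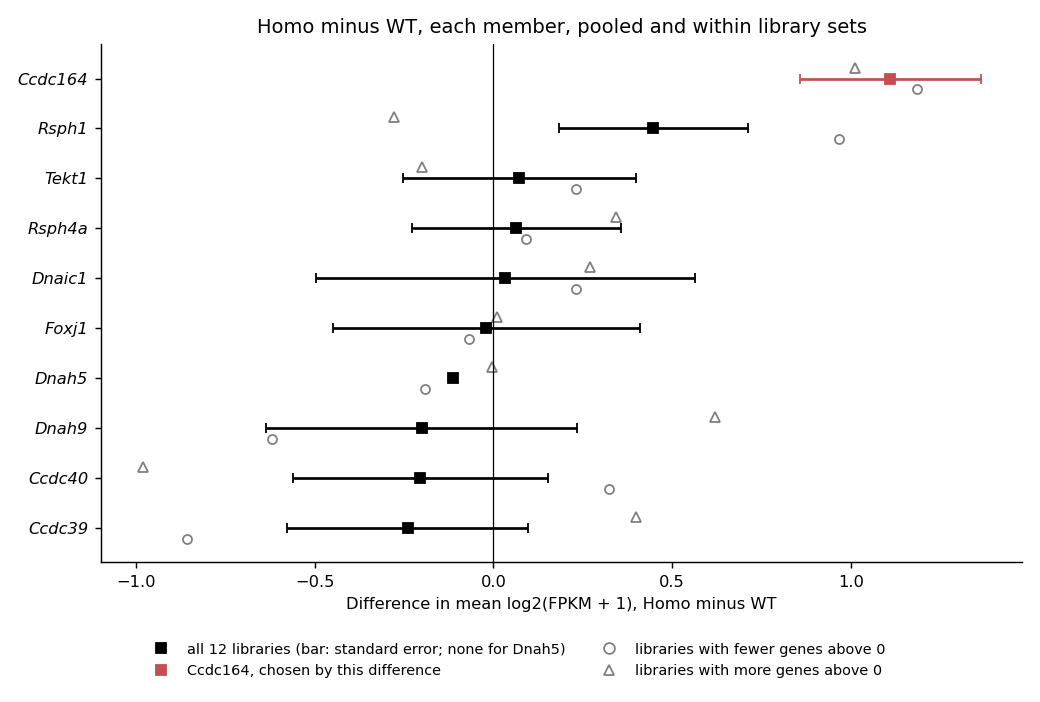
Difference in mean log2(FPKM + 1), Homo minus WT (horizontal axis), for each member, with squares and standard errors for all 12 libraries and open symbols within each library set. Ccdc164 lies near 1 in both sets, while among the others only Rsph1 exceeds 0.4 over all libraries and several lie on opposite sides of 0 in the sets.

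Within the library sets the other members also did not share a direction. In each set 5 of the 9 were higher in Homo, but only 3 kept 1 sign in both: Dnaic1 (0.23 and 0.27 on the log2 scale in the sets with fewer and more genes), Rsph4a (0.09 and 0.34) and Dnah5 (-0.19 and -0.0041). Ccdc39 went from -0.86 to 0.40, Ccdc40 from 0.32 to -0.98, and Dnah9 from -0.62 to 0.62. Tekt1 went from 0.23 to -0.20, and Foxj1 had -0.068 and 0.0099. The median over all genes tested was -0.08 and 0.13. The shares of all genes higher in each set, or keeping their sign, were not taken. The set with fewer genes held 2 WT libraries and the set with more 2 Homo libraries, so these signs rest on few libraries. With library set as a term in limma, 0 of the 8 tested had an unadjusted p under 0.05, and the smallest exact p over rearrangements within the sets was 0.205. Between the sets themselves, 0 of the 9 members tested passed the test (smallest limma adjusted p = 0.698).

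**Figure D3:**
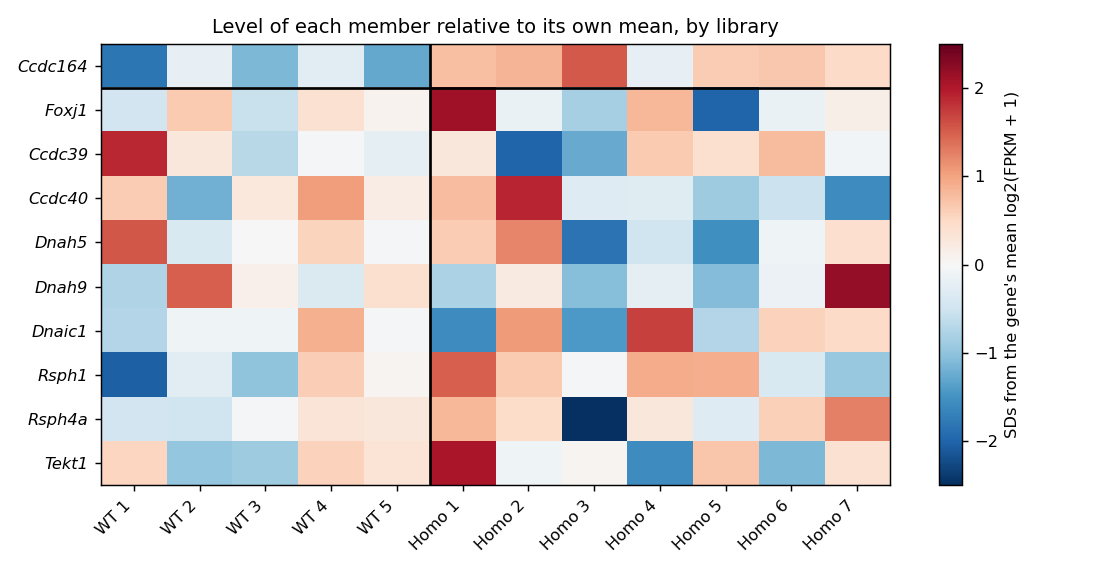
Each member's log2(FPKM + 1) in each library (columns, WT left of the black line), in SDs from that gene's mean over 12 libraries (red above, blue below). Ccdc164, in the top row, is below its mean in all 5 WT libraries and above it in 6 of 7 Homo libraries.

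Library by library, a high level of Ccdc164 went with both low and high levels of the other members. Homo 3 had the highest Ccdc164, at 14.3 FPKM, and the lowest summed level of the other 9, at 26.0 FPKM, and in it Dnah5 was listed at 0 and Rsph4a was lowest. The median over all genes tested was also lowest in Homo 3, at 5.20 FPKM against 5.75 to 7.35 in the other libraries. Homo 2, next in Ccdc164 at 10.1 FPKM, had a sum of 53.5 FPKM. Homo 1, with 9.55 FPKM of Ccdc164, had the highest sum, at 56.7 FPKM, with the highest Foxj1, Rsph1 and Tekt1 but the lowest Dnaic1. Homo 4 had the lowest Homo level of Ccdc164, at 5.67 FPKM, and a sum of 55.6 FPKM, which its Dnaic1 and Rsph1 largely made up. The sums of the WT libraries, 30.1 to 50.6 FPKM, lay within the range of the Homo libraries.

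Within the 7 Homo libraries, where the contrast that chose Ccdc164 plays no part, its level was related to that of each other member by Pearson r and Spearman rho. Of 9 relations, 7 had a negative r and 2, with Tekt1 (r = 0.41) and Ccdc40 (r = 0.20), a positive one. The largest was with Dnaic1, at r = -0.70 (exact permutation p = 0.0611, adjusted over 9 relations 0.532) and rho = -0.46 (exact p = 0.302, adjusted 0.851). With Rsph4a it was r = -0.65 (exact p = 0.177) and rho = -0.29, and with Ccdc39 r = -0.61 (exact p = 0.171) and rho = -0.61. None had an adjusted p under 0.05. Without Homo 3 and Homo 4, the 2 libraries farthest from the median of Ccdc164, r with Dnaic1 was -0.01, with Rsph4a -0.35 and with Ccdc39 -0.52, while with Ccdc40 it was 0.94 and with Rsph1 0.70, over 5 libraries. Over all 12 libraries, where the genotype difference of Ccdc164 enters, r lay between -0.47 (Ccdc39) and 0.54 (Rsph1), with a median of -0.13.

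**Figure D4:**
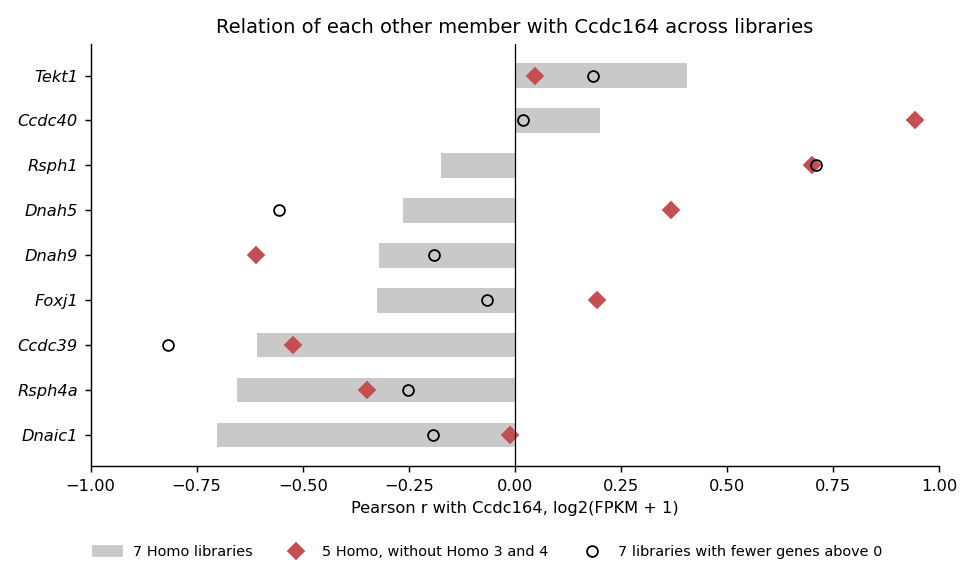
Pearson r of Ccdc164 with each other member (horizontal axis) within the 7 Homo libraries (bars), without Homo 3 and Homo 4 (diamonds) and within the 7 libraries with fewer genes above 0 (circles). Bars run from -0.70 (Dnaic1) to 0.41 (Tekt1), and for most genes the 3 marks lie far apart.

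Among themselves the other 9 members were loosely related. The Pearson r of the 36 pairs over 12 libraries had a median of 0.16, was above 0 in 27 and ran from -0.62 (Dnaic1 with Tekt1) to 0.60 (Dnah5 with Rsph4a). Foxj1 was positively related to each of the others, by 0.11 (Ccdc39) to 0.45 (Rsph4a). All pairs share their libraries and the depth of these, so r describes them and is not tested. The genes most like Ccdc164 over 12 libraries were AC158662.2 (r = 0.90), 5730409E04Rik (r = 0.88), Rasl11b (r = 0.85), mt-Ti (r = 0.84) and Mrpl14 (r = 0.83), the best of 14017 genes searched. The genotype contrast that chose Ccdc164 enters this r, and all 5 had a higher mean in Homo. Those most like the mean of the standardised other members were Zfp148 (r = 0.95), Rtkn (0.90), Spred1 (0.88), Ttc8 (0.88), Rbl2 (0.87), Tmod2 (0.87), Hdac4 (0.86), Fundc1 (0.86), 1700009P17Rik (0.86) and Dok4 (0.86). Of these, 1700009P17Rik, now Cfap126, is on the lists below, and Ttc8 encodes a subunit of the BBSome, which carries cargo in cilia.

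The wider set of motile cilium genes was described by 9 lists of 164 further genes, of which 162 were matched to the table and 94 reached a mean of 1 FPKM. These 94 included genes as abundant as Dynll1 (383 FPKM) and Dynlrb1 (325). Hydin (0.261), Ccdc153 (0.352) and Sntn (0.0395) were among those below that level and were not tested. In bulk tissue the counts of the 94 are therefore not specific to ependymal cells. Among the 94, 45 had a higher and 49 a lower mean log2 level in Homo, with a median difference of -0.0060, beside 6912 higher and 7105 lower with a median of -0.0062 over all 14017. None had an adjusted p under 0.05 (smallest limma adjusted p = 0.666). At an unadjusted p under 0.05, 3 of the 94 (3.19%) were higher in Homo, beside 3.05% of all genes, and 0 were lower, beside 2.5%. The 3 were Morn5, Ccdc63 and Tctex1d2. Within the library sets the median was -0.17 in the set with fewer genes and 0.23 in the set with more, where the median over all genes was -0.08 and 0.13.

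Among the other genes of Ccdc164's own complex, the nexin-dynein regulatory complex, 2 of 5 tested were higher in Homo and 3 lower, with a median log2 difference of -0.06. Gas8, a core subunit, measured 7.62 ± 2.31 FPKM across WT (SD, n = 5) and 9.58 ± 1.68 across Homo (SD, n = 7), a difference of 0.32 (SE 0.21, limma adjusted p = 0.915). Iqcg measured 7.98 ± 4.69 and 6.12 ± 3.98 FPKM, a difference of -0.33 (SE 0.39, limma adjusted p = 0.929). Neither difference passed the test.

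Of the genes that regulate ciliogenesis, 7 of 12 tested were higher and 5 lower, with a median of 0.15. The largest difference was that of E2f5, which acts in multiciliated cell formation, from 1.42 ± 1.03 FPKM (SD, n = 5) in WT to 2.51 ± 1.12 (SD, n = 7) in Homo, at 0.58 on the log2 scale (SE 0.33, limma adjusted p = 0.907). Outer arm and docking genes divided into 4 higher and 6 lower of 10 tested. Ccdc63, a docking protein best known from sperm, was listed at 0 to 1.39 FPKM in WT and at 1.38 to 5.76 in Homo. Its log2 difference was 0.97 (SE 0.32, limma adjusted p = 0.783). Tctex1d2, a dynein light chain that also serves intraflagellar transport, was named after its values were seen. Its WT libraries held 8.67 to 16.2 FPKM and its Homo libraries 10.7 to 31.0, a difference of 0.75 (limma adjusted p = 0.783).

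Of the inner arm genes only 2 of 13 matched reached the level for testing. Both had lower means in Homo, and Wdr78, an intermediate chain, had a log2 difference of -0.31 (SE 0.21, limma adjusted p = 0.915). Radial spoke genes divided into 5 higher and 6 lower of 11. Spata26, listed also as Cfap91, went from 1.89 ± 1.10 FPKM (SD, n = 5) in WT to 1.05 ± 0.175 (SD, n = 7) in Homo, at -0.43 (SE 0.28, limma adjusted p = 0.915), and Morn3, listed at 0 in 7 of 12 libraries, had a difference of -0.91 (SE 0.63, limma adjusted p = 0.915). The 7 central pair genes tested included Gm872, listed also as Cfap54, at 4.58 ± 1.00 FPKM (SD, n = 5) in WT and 2.80 ± 3.17 (SD, n = 7) in Homo, a difference of -0.88 (SE 0.43, limma adjusted p = 0.899). In Homo the highest library of Gm872, Homo 7, stood at 9.34 FPKM, above every WT library. The difference turned from -1.27 in the set with fewer genes to 0.35 in the set with more.

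Tektins and inner proteins of the doublet were 9 higher and 8 lower of 17, with Mns1 at -0.62 (SE 0.39, limma adjusted p = 0.915). Dynein assembly factors, which fold the arms in the cytoplasm, were 3 higher and 7 lower of 10, and Wdr67, now Tbc1d31, a protein of centriolar satellites, had the largest difference of that list, at -0.87 (SE 0.41, limma adjusted p = 0.899). Among other transcripts of ciliated ependymal cells 12 of 20 were higher. Morn5 had the largest difference of all 94 genes, with 0 to 2.72 FPKM in WT and 1.58 to 7.82 in Homo. The difference was 1.51 (SE 0.40, limma adjusted p = 0.666).

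**Figure D5:**
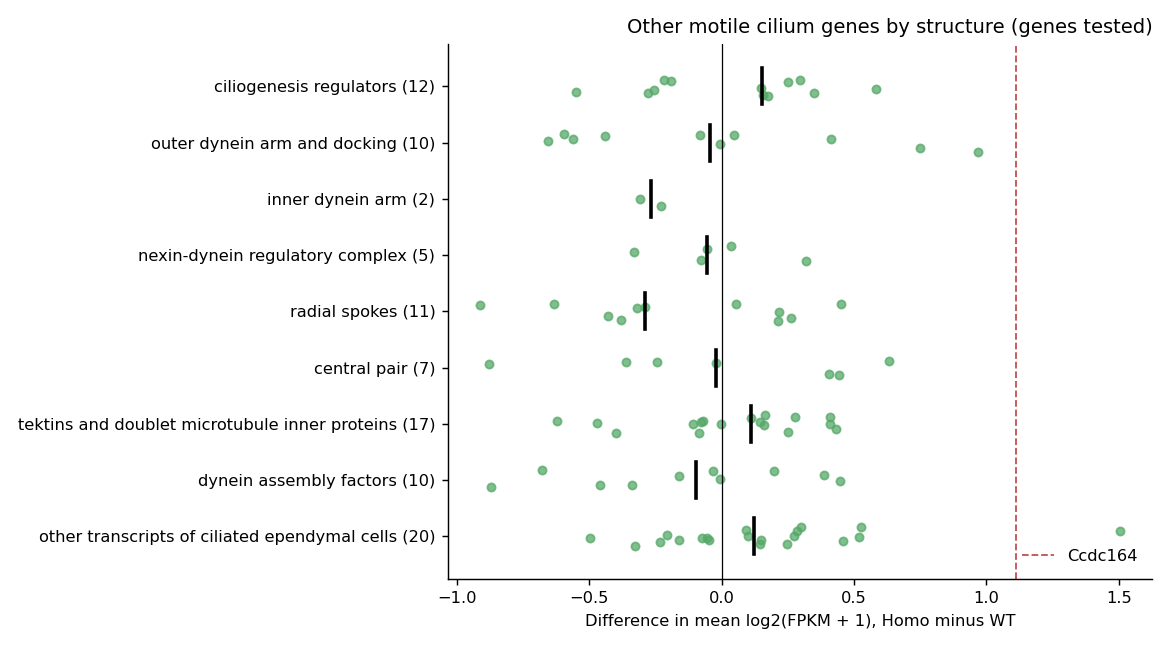
Difference in mean log2(FPKM + 1), Homo minus WT (horizontal axis), for the 94 tested genes of 9 motile cilium lists (points), with the median of each list (black bars), the number tested in parentheses and the difference of Ccdc164 (dashed line). Medians lie between -0.29 and 0.15, and 1 gene, Morn5, lies beyond Ccdc164.

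The neighbours of Ccdc164 on chromosome 5 were examined by position after its difference was known. Selenoi, listed as Ept1, ends upstream of Ccdc164 and measured 23.0 ± 8.86 FPKM (SD, n = 5) in WT and 20.1 ± 6.94 (SD, n = 7) in Homo, a log2 difference of -0.18 (SE 0.28, limma adjusted p = 0.951). Otof, which lies just downstream on the opposite strand, measured 1.53 ± 1.26 and 1.02 ± 0.364 FPKM, a difference of -0.24 (SE 0.33, limma adjusted p = 0.943). Hadha and Hadhb, the subunits of the mitochondrial trifunctional protein, differed by -0.0051 and 0.04 on the log2 scale. 1700001C02Rik, listed at 0 in 6 of 12 libraries, measured 0.529 ± 0.587 and 1.61 ± 2.23 FPKM, a difference of 0.40 (SE 0.58, limma adjusted p = 0.946). Mir1960 was listed at 0 in 11 of 12 libraries. None of these 6 tested neighbours within 150 kb on either side passed the test that covered all genes. Genes farther along the chromosome were not examined by position, and whether the genotypes differ in DNA sequence around Ccdc164 was not tested.

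Markers of the cell types that ARC samples could hold are given beside these results. Of all 14017 genes tested, 49.3% were higher in Homo and 5.55% had an unadjusted limma p under 0.05 in either direction. Ependymal markers that are not ciliary summed to 135 to 167 FPKM in WT and 123 to 214 in Homo. Of these, 7 of 11 were higher in Homo, with 0 adjusted p under 0.05 by limma. S100b was the most abundant, at 25.6 FPKM in WT and 31.2 in Homo. Aqp4 is also on the astrocyte list, so this sum does not measure ependymal cells alone. Tanycyte markers summed to 61.9 to 202 FPKM in WT and 37.9 to 104 in Homo, with 10 of 12 tested lower in Homo and 2 at an unadjusted p under 0.05. Gpr50, their most abundant gene, averaged 41.4 FPKM in WT and 16.8 in Homo. Choroid plexus markers, which would bring other ciliated cells, summed to 32.9 to 56.9 and 35.2 to 58.6 FPKM, led by Prlr at 31.3 FPKM in WT and 28.7 in Homo. Clic6 followed, and in Homo 2, at 21.4 FPKM, it exceeded Prlr at 15.8, while Ttr, the defining transcript of that tissue, was at 0.151 to 3.88 FPKM. Folr1, Kcne2, Slc4a5, Aqp1 and Otx2 averaged 0.0015 to 0.178 FPKM over the 12 libraries, so the sums rest mostly on Prlr and Clic6.

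Of the other lists, all 7 oligodendrocyte markers tested (led by Mbp) and all 8 microglial markers (led by C1qb) were higher in Homo, beside 49.3% of all genes. Microglial sums were 64.9 to 110 FPKM in WT and 96.2 to 164 in Homo, with 3 genes at an unadjusted p under 0.05, and oligodendrocyte sums were 89.6 to 553 and 154 to 407 FPKM. Arcuate neuron markers, led by Npy, summed to 1312 to 4613 FPKM in WT and 3397 to 5195 in Homo, with 7 of 8 higher and 2 at an unadjusted p under 0.05. Astrocyte markers (Aldoc highest) were higher in 7 of 9, endothelial markers (Abcb1a) in 6 of 8, neuronal markers (Snap25) in 5 of 8 and those of pars tuberalis and pituitary in 1 of 4 tested, Chga. The latter list summed to 42.1 to 189 FPKM in WT and 48.7 to 105 in Homo, with Gh and Cga high in the libraries named above. Elsewhere this sum came mostly from Chga, which averaged 49.0 FPKM in WT and 60.3 in Homo. It is therefore not read as pituitary content. No marker of any list had a limma adjusted p under 0.05, and none was listed at 0 in all libraries. The part of cell content in the levels of Ccdc164 and the other members was not tested.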

How the data were processed

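RNA-seq libraries from the ARC, 5 WT and 7 Homo, were analysed, grouped by the labels. Per the submitters' processing notes the authors used TopHat2 2.0.8, Cufflinks 2.2.1 and the GRCm38 build, and they deposited 1 table of FPKM values for 38283 genes, with no counts. Its 12 columns were matched to the samples by label. Any scaling beyond FPKM and the use of strand are not given in the sources used here.

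FPKM were taken as log2(FPKM + 1), so that differences of low genes are understated. The 14017 genes whose mean over all libraries reached 1 FPKM were fitted with limma 3.58.1 in R 4.3.3 (lmFit, eBayes with trend and robust variances), with a single term for genotype, and p-values were adjusted after Benjamini and Hochberg over all genes tested. Single members were compared by exact two-sided permutation over 792 arrangements of the libraries, or 210 within the library sets (smallest p 0.00476), and relations by exact permutation of pairings (scipy 1.17.1). The worth of 1 fragment was read from the lowest steps of FPKM of genes with 1 transcript. P-values measure the spread between these libraries, which may in part be technical, since the labels name no animals.

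Members, gene lists and markers were chosen with earlier results of these data known. Genes named outside the members are those with the smallest p and the largest difference in each list, the most abundant marker of each cell type, and those most like the members; Tctex1d2 and the chromosomal neighbours were added later. Positions are from GENCODE release M21, in which 97.5% of the tested identifiers were found. Scripts were tested on simulated data. Alternatives covered the pseudocount, filters, scaling, weights, library sets, each library left out and a replicate block, with 1 more, the libraries with Gh left out, added after the data were seen. R299Q changes 1 residue, so the level of Prkag2 does not check the labels. Figures were drawn with matplotlib 3.10.9.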

Additional observations from a re-analysis of the deposited data

Results flagged for a closer look

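In Homo, the level of Dnah9 in Homo 7 stood apart from the other 6 libraries. At 3.90 FPKM against 1.04 in the next highest, its gap made up 0.603 of the group's range on the log2(FPKM + 1) scale. Rsph4a stood apart in Homo 3, where 0.587 FPKM lay below a next lowest value of 2.38, a gap of 0.598 of the range. These were 2 of 20 groups examined (10 genes in each genotype), and chance flags about 1 in 20 groups. The log2 difference of Dnah9 was -0.20 with all libraries and -0.45 without Homo 7. That of Rsph4a was 0.06 with all libraries and 0.28 without Homo 3, and neither gene had an adjusted p under 0.05. Homo 7 was also highest for listed ciliary genes too low for testing, such as Odf3b (4.55 FPKM, next 1.70) and Ccdc153 (2.03, next 0.556). Others were highest elsewhere, such as Cdhr4 (3.98 in Homo 1) and Dydc2 (4.69 in WT 1). Among all listed ciliary genes too low for testing, Homo 7 was highest more often than any other library. The share over all genes that low was not taken. Among the listed ciliary genes tested, Homo 7 was highest for 8 (8.51%), beside 6.19% of all genes tested, and Homo 4 for 14. Homo 7 also had the most genes above 0. Whether these genes and Dnah9 share a cause was not tested.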

How the results depend on the processing

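The log2 difference of Ccdc164 kept its sign under every alternative run, at 0.96 to 1.30. Since this contrast chose the gene, that range describes it and is no test. No other tested member had an adjusted p under 0.05 under any alternative (smallest 0.679), but the difference of each of these 8 changed sign under at least 1. In the libraries with more genes above 0 alone these were Foxj1 (0.0099), Ccdc39 (0.40), Dnah9 (0.62), Rsph1 (-0.28) and Tekt1 (-0.20), and in those with fewer genes alone Ccdc40 (0.32). With array weights they were Dnah9 (0.073), Dnaic1 (-0.00094) and Tekt1 (-0.082), with quantile normalization Foxj1 (0.026) and with a pseudocount of 0.1 Dnaic1 (-0.077). That pseudocount also gave -0.53 for Dnah5 (from -0.11), -0.37 for Foxj1 (from -0.02) and -0.57 for Dnah9 (from -0.20). With Homo 1 to 5 as the only Homo libraries they were Ccdc40 (0.027), Dnaic1 (-0.17) and Rsph4a (-0.10). Leaving out each library in turn gave -0.29 to 0.23 for Foxj1, -0.38 to 0.00063 for Ccdc39, -0.45 to 0.0092 for Dnah9, -0.25 to 0.29 for Dnaic1, -0.028 to 0.28 for Rsph4a, -0.10 to 0.22 for Tekt1, -0.42 to -0.053 for Ccdc40 and 0.26 to 0.59 for Rsph1. Leaving out the 3 libraries with Gh together, an alternative chosen after seeing the data, gave -0.075 for Dnaic1 and -0.027 for Tekt1, with 3 of 10 members and 38 of 94 other motile cilium genes higher in Homo, a median of -0.12 for the latter and 2 genes called. The cause was not tested.

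The number of genes called, 1 over all libraries, was 4 with Homo 1 to 5 as the only Homo libraries, 6 and 19 in the sets with fewer and more genes above 0 alone, and 1 to 3 with a library left out. Without Homo 4 it was 2 and without WT 2 it was 3. The number of members higher in Homo, 5 of 10, was 3 to 6 with a library left out (3 without Homo 7). Of the other motile cilium genes, 18 of 32 with a mean of at least 5 FPKM and 76 of 160 with no filter were higher, because fewer or more genes were tested, and 43 to 52 of 94 with a library left out. Their median difference was -0.17 and 0.23 in the sets alone and -0.06 to 0.04 with a library left out. Among relations with Ccdc164, the sign changed for Rsph1 in the libraries with fewer genes (r = 0.71) and with quantile normalization (0.092), and leaving out a library gave -0.40 to 0.068 for Rsph1, -0.52 to 0.37 for Dnah5, -0.92 to 0.10 for Rsph4a and -0.10 to 0.59 for Tekt1. Of 89 alternative values of r, 2 had an unadjusted exact p under 0.05, for Ccdc39 in the libraries with fewer genes (r = -0.82) and Dnaic1 without Homo 2 (r = -0.82).

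Same-numbered WT and Homo libraries did not deviate together (correlations -0.05 to 0.03, and 0 of 5 correlated best with its own number). No pairing by number was thus seen, though such correlations cannot exclude one. A replicate block called 2 genes and gave 0.027 for Ccdc40, -0.17 for Dnaic1 and -0.10 for Rsph4a; it changed no call of a member. Fragment numbers were not given with the table, and differences smaller than the members' intervals could not be told from 0 with these libraries.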
